A study of Zeugodacus cucurbitae with 6 samples.

Results

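The genes described here were the symbol-named genes of the melon fly, Zeugodacus cucurbitae, whose level stayed nearly flat across all libraries of a study of egg irradiation. They were chosen by their measured level (CPM, the count of a gene scaled to a library total of 1000000 counts). A gene was kept when it had at least 20 CPM in each of the 6 libraries and its largest CPM exceeded its smallest by at most 25%. Genes known only by a number and 15 name groups that include cytochrome P450 enzymes, solute carriers, ribosomal proteins and kinases of the cell cycle were left out. Of 12834 genes in the table, 1033 had a symbol, 470 of these reached 20 CPM in every library and 419 remained once the left-out name groups were removed. Of these 419 eligible genes, 61 (14.6%) were within this limit on the ratio of largest to smallest CPM and are called the steady genes, and 358 were over it. Among all 3786 genes at the CPM minimum, numbered genes included, 15.3% were within the ratio. Both groups of libraries entered the choice, so the flatness of the 61 genes is what chose them, and their values are given as a description with no test.

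Non-irradiated larvae came from eggs that received 0 Gy, and irradiated larvae from eggs of about 25 h that received 50 Gy of gamma radiation from radioactive cobalt at 1 Gy per minute. Larvae of both groups were reared on the same artificial diet, and each of the 3 replicates per group was a pool of 20 larvae of the 3rd instar, the last larval stage before the pupa. Total counts on genes were between 13192748 and 18311658, so that the minimum of 20 CPM stood for 264 to 366 counts. Per the study's methods, each replicate was a set of egg dishes of its own; whether the sets of a group were irradiated separately is not stated, and no strain or genotype beyond the species is given in the labels. A change in the share of a cell type cannot be told apart from a change in RNA per cell in such whole-larva pools. Of the marker genes listed for larvae, none was found by its symbol, so the stage rests on the labels. The adult eye genes Rh4_1, Rh6 and Arr1 were between 0 and 9.83 CPM in all libraries.

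Housekeeping genes supply functions that nearly every cell needs at all times: reading genes into mRNA, capping and exporting that mRNA, translating it, and folding, sorting and breaking down proteins. Ionising radiation breaks DNA and disturbs cell division, and it can slow the growth of insects. Genes whose level holds still under such a treatment are the ones that expression studies look for when they need a reference. Roles below are those known for the named protein in flies or mammals, since the symbols of the table were given by similarity and a suffix such as _2 only numbers the copies of a name.

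Before the steady genes are described, the libraries that stand apart are given. Irradiated replicates 1 and 2 were more alike than any other pair, with a Spearman correlation across genes of 0.996 against 0.930 to 0.978 in the other pairs. When the pair was summed into 1 library, 67 genes were steady, and these held all 61. Non-irradiated replicate 1 had a TMM factor (edgeR's trimmed-mean scaling factor, computed from all genes) of 1.1, while those of the other libraries were between 0.949 and 0.994. The yolk protein gene Yp3_0, a marker of adult females in flies, was at 22.8 CPM in irradiated replicate 3 and between 148 and 357 CPM in the other 5 libraries. Yp3_1, which has the same symbol, did not set that library apart. It was at 13.3 CPM there and between 11.3 and 16.5 CPM in the others. The part of these differences in the results was not tested.

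The 61 steady genes had a ratio of largest to smallest CPM between 1.087 and 1.247, with a median of 1.197, while the median of all 419 eligible genes was 1.51. The ratio was at most 1.1 in 3 of the 61. At the edge of the rule, Nipsnap and Doa_0 stood just inside with ratios of 1.246 and 1.247, and the proton pump gene Vha36-1 and the fibrillarin gene Fib stood just outside with 1.251 and 1.252. Ratios therefore ran without a gap across the limit.

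**Figure D1:**
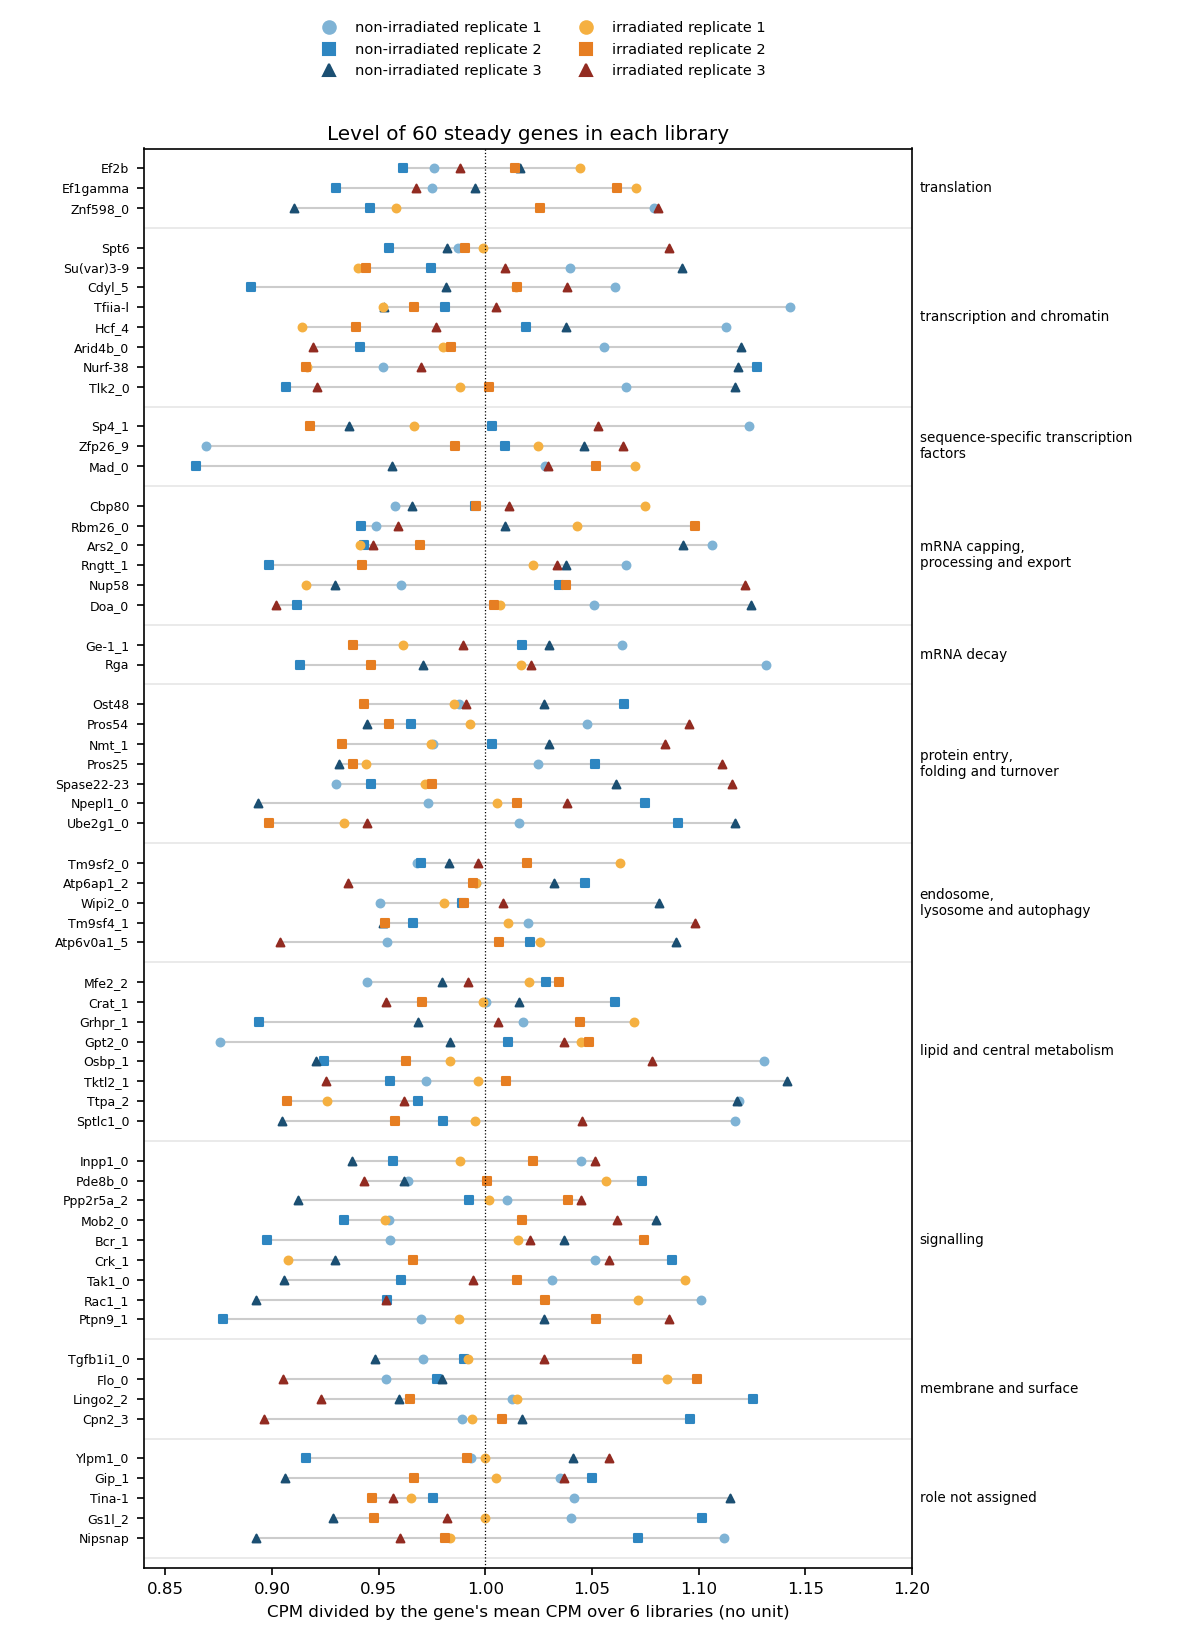
The level of 60 of the 61 steady genes in each of the 6 libraries, as CPM divided by the mean CPM of the gene (x axis, no unit), with genes in rows grouped by role and ordered by ratio. All points lie between 0.864 and 1.143, and non-irradiated and irradiated points are mixed in 47 of the 60 rows.

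Translation elongation held the flattest gene of the set by plain CPM. Ef2b, elongation factor 2, which moves the ribosome along the mRNA, was at 4630, 4562 and 4822 CPM in non-irradiated replicates 1 to 3 and at 4957, 4812 and 4688 CPM in irradiated replicates 1 to 3. The groups overlapped, with means of 4671 ± 135 and 4819 ± 134 CPM (SD, n = 3 each) and a ratio of largest to smallest of 1.09. Ef1gamma, a subunit of the complex that recharges the factor delivering aminoacyl-tRNA, was at 1768, 1686 and 1805 CPM without and 1942, 1926 and 1755 CPM with irradiation. Per length, both stood at the top of the 61, with 1678 ± 51.3 FPKM for Ef2b and 1122 ± 62.4 FPKM for Ef1gamma (counts scaled by library total and gene length, SD, n = 6). Znf598_0, in mammals a ubiquitin ligase that marks collided ribosomes, was far lower at 7.82 ± 0.567 FPKM and had a ratio of 1.19.

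Transcription and chromatin accounted for 8 steady genes, and their ratios ran from 1.14 to 1.23. Spt6, a histone chaperone that travels with RNA polymerase II, was at 111.1, 107 and 110 CPM in the non-irradiated and 112, 111.5 and 122 CPM in the irradiated libraries. All 3 irradiated values lay above the non-irradiated ones, by 5.18% in the means. Su(var)3-9, the methyltransferase of histone H3 in heterochromatin, was at 78.6, 73.7 and 82.6 CPM without and 71.1, 71.4 and 76.3 CPM with irradiation, and the groups overlapped. Hcf_4, a co-regulator found in histone-modifying complexes, was lower in every irradiated library, at 30.8, 31.7 and 32.9 CPM against 37.5, 34.4 and 35.0 CPM. Its means were 31.8 ± 1.06 and 35.6 ± 1.67 CPM, a difference of -10.7%, and its ratio was 1.22. The others were Tfiia-l, the large subunit of a basal factor at promoters, Nurf-38, a subunit of the NURF chromatin remodeler, Arid4b_0, in mammals a subunit of the Sin3 deacetylase complex, Cdyl_5, a chromodomain protein, and Tlk2_0, a kinase of histone chaperones. Of these, Nurf-38 showed the widest gap, with 153 ± 14.2 CPM in the non-irradiated and 134 ± 4.47 CPM in the irradiated group, while its libraries overlapped.

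Among sequence-specific transcription factors, 3 of 14 eligible genes were steady (21.4%, against 14.6% of all eligible genes). Mad_0, the effector of BMP signalling, was higher in every irradiated library, at 42.5, 41.7 and 40.8 CPM against 40.8, 34.3 and 37.9 CPM. The lowest irradiated and highest non-irradiated values were 40.84 and 40.78 CPM, so that the groups were barely separated. Sp4_1, a zinc finger factor of the Sp family, and Zfp26_9, another zinc finger protein, both overlapped between groups.

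The path of the mRNA out of the nucleus was covered at several steps. Cbp80, the large subunit of the nuclear cap-binding complex, was at 23.1, 24.02 and 23.3 CPM without and 25.9, 24.03 and 24.4 CPM with irradiation, and every irradiated value lay above the others. These levels rest on 305 to 446 counts, and the spread of Cbp80 over the 6 libraries (a CV of 4.18%) was below the 5.11% that counting error alone gives. Rngtt_1, the capping enzyme, had group means of 27.6 ± 2.47 and 27.6 ± 1.38 CPM. Ars2_0, which links the cap-binding complex to RNA processing, was at 73.2, 62.4 and 72.3 CPM without and between 62.3 and 64.2 CPM with irradiation, so that 1 non-irradiated library reached the irradiated range. Rbm26_0, an RNA-binding protein, Nup58, a component of the central channel of the nuclear pore, and Doa_0, in Drosophila a kinase of splicing factors, had ratios of 1.17, 1.22 and 1.247. For mRNA decay, Ge-1_1, a scaffold of the decapping complex, was lower in every irradiated library (42.1, 41.01 and 43.3 CPM against 46.5, 44.5 and 45.0 CPM), and Rga, a subunit of the CCR4-NOT deadenylase, overlapped with means of 46.9 ± 5.27 and 46.4 ± 1.96 CPM.

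The entry, modification and turnover of proteins was served by 7 steady genes. Pros54, the ubiquitin receptor of the proteasome's regulatory particle, was at 119, 109 and 107 CPM without and 112, 108 and 124 CPM with irradiation. Pros25, an alpha subunit of the proteasome core, was at 78.2, 80.3 and 71.1 CPM without and 72.1, 71.6 and 84.8 CPM with irradiation. For both, irradiated replicate 3 was the highest library and the groups overlapped. Ube2g1_0, a ubiquitin-conjugating enzyme, had the largest difference in means of all 61 genes: its irradiated libraries at 98.2, 94.5 and 99.4 CPM were all below the non-irradiated ones at 107, 115 and 118 CPM, with a difference in means of -13.8%. Ost48, a subunit of the enzyme that attaches sugar chains to new proteins, Spase22-23, a subunit of signal peptidase, Nmt_1, the N-myristoyltransferase, and Npepl1_0, an aminopeptidase-like protein, had ratios between 1.129 and 1.203.

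Acidification and sorting in endosomes and lysosomes were represented by 5 genes. Atp6ap1_2, an accessory subunit of the vacuolar proton pump, was at 416, 437 and 431 CPM without and 416, 415 and 391 CPM with irradiation. Its groups did not overlap, by a margin of under 1 CPM. Atp6v0a1_5, the membrane subunit a of the same pump, was at 548, 586 and 626 CPM without and 589, 578 and 519 CPM with irradiation. Tm9sf2_0 and Tm9sf4_1, of the nonaspanin family of endosomal membrane proteins, had ratios of 1.098 and 1.154. Tm9sf2_0 was at 218, 219 and 222 CPM in the non-irradiated libraries and slightly higher in every irradiated one, at 240, 230 and 225 CPM. Wipi2_0, which acts in autophagosome formation, had means of 46.9 ± 3.13 and 46.2 ± 0.654 CPM.

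Enzymes or carriers of lipid and central metabolism made up 8 of the steady genes. Mfe2_2, the multifunctional enzyme of peroxisomal fatty acid oxidation, had the second smallest ratio of the set by plain CPM (1.095). It was at 470, 511 and 487 CPM without and 507, 514 and 493 CPM with irradiation. With TMM scaling its ratio was 1.262, over the limit. Crat_1, carnitine acetyltransferase, was at 126, 134 and 128 CPM without and 126, 122 and 120 CPM with irradiation, and its groups were apart by under 1 CPM. Gpt2_0, an alanine aminotransferase, was above the non-irradiated range in every irradiated library (565, 567 and 561 CPM against 473, 546 and 532 CPM), and the lowest value came from non-irradiated replicate 1. Ttpa_2, a carrier of alpha-tocopherol in mammals, was lower in every irradiated library, with a difference in means of -12.8%. Tktl2_1, a transketolase, Grhpr_1, a glyoxylate and hydroxypyruvate reductase, Sptlc1_0, a subunit of the first enzyme of sphingolipid synthesis, and Osbp_1, an oxysterol-binding protein, overlapped between groups. The irradiated mean of Sptlc1_0 differed by -0.144%, with 44.4 ± 4.78 and 44.3 ± 1.95 CPM.

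Signalling was the largest role, with 10 genes, and in all of them the groups overlapped. Pde8b_0, a phosphodiesterase of cyclic AMP, had the most equal means of the 61, at 24.6 ± 1.57 and 24.6 ± 1.39 CPM. Tak1_0, a kinase upstream of stress-activated signalling, was at 23.2, 21.6 and 20.4 CPM without and 24.6, 22.8 and 22.4 CPM with irradiation. Others were Ppp2r5a_2, a regulatory subunit of protein phosphatase PP2A, Ptpn9_1, a tyrosine phosphatase, Mob2_0, a co-activator of kinases of the NDR family, Rac1_1, a small GTPase of the actin skeleton, Bcr_1, which acts on such GTPases, Crk_1, an adaptor protein, and Inpp1_0, an inositol phosphate phosphatase. Their ratios ran from 1.12 for Inpp1_0 to 1.24 for Ptpn9_1.

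Of 4 genes for membrane and surface proteins, Tgfb1i1_0, a protein of focal adhesions, was slightly higher in every irradiated library (58.6, 63.3 and 60.7 CPM against 57.4, 58.5 and 56.0 CPM). Flo_0, a flotillin, and the leucine-rich repeat proteins Lingo2_2 and Cpn2_3 overlapped, and irradiated replicate 3 had the lowest value of all 3. No role was assigned to Gip_1, Gs1l_2, Nipsnap, Tina-1 and Ylpm1_0. Among these, Tina-1 was lower in every irradiated library, with 192 ± 12.8 and 175 ± 1.70 CPM.

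Across the 61 genes, the ratio of irradiated to non-irradiated mean ran from 0.862 to 1.11 with a median of 1.00. The mean was higher in irradiated larvae for 31 genes and lower for 30, and it was within 5% for 30 and within 10% for 56. The groups did not overlap for 13 genes (6 above, 7 below), or 21.3%, while 32.2% of the 419 eligible genes had groups apart. A narrow ratio limits how far groups can part, so nothing is read from this share. None of the 61 was called at an adjusted p under 0.05 in the quasi-likelihood test of edgeR (Benjamini-Hochberg adjusted), none had an unadjusted p under 0.05 and none was called by DESeq2. Over all 9768 genes tested, edgeR called 2.14% higher and 1.6% lower in irradiated larvae. As the rule used this contrast, nothing is read from the absence of calls either.

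The spread of the steady genes was larger among the non-irradiated than among the irradiated libraries. The median ratio of largest to smallest CPM was 1.14 within the non-irradiated group and 1.08 within the irradiated group, which holds the near-identical pair. Over all eligible genes the same medians were 1.34 and 1.13. Non-irradiated replicates 2 and 3 were the lowest library for 14 and 15 of the 61 genes and non-irradiated replicate 1 the highest for 14. In every library the 61 genes together took between 1.301% and 1.366% of all counts.

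Steadiness was set against counting error, since few counts add a spread of their own. The CV over the 6 libraries had a median of 6.41% for the 61 genes, where counting error alone gives a median of 3.08%. The variance of the counts was at most 2 times that of counting in 12 of the 61 genes and in none of the 358 others. The ratio limit acted on the same 6 libraries, so nothing is read from this split. These 12 genes, among them Cbp80, Pde8b_0, Wipi2_0, Ge-1_1 and Tak1_0, had between 289 and 1221 counts in a library. By contrast Ef2b, with 61083 counts or more, had a CV of 3.06% against 0.365% from counting. Steady genes were found at all levels, as 23 of 137 eligible genes (16.8%) at 20 to 50 CPM, 18 of 119 (15.1%) at 50 to 100 CPM, 12 of 101 (11.9%) at 100 to 300 CPM and 8 of 62 (12.9%) above.

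**Figure D2:**
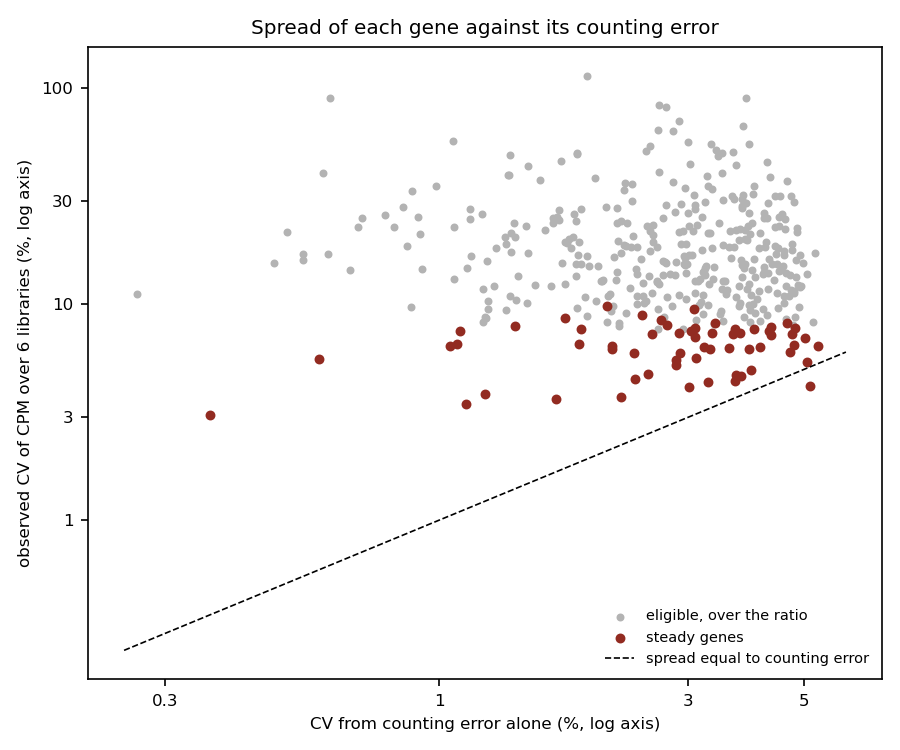
Observed CV of CPM over the 6 libraries (y axis, %, log scale) against the CV that counting error alone would give (x axis, %, log scale) for the 61 steady genes and the other 358 eligible genes, with a dashed line where both are equal. The steady genes lie between 3.06% and 9.75%, nearest to the line at low counts, and 1 of them, Cbp80, lies below it.

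The functions that held steady were then counted against all eligible genes, with 20 lists of gene symbols. These lists were drawn up with earlier results of these data known and edited after the names and values had been seen, so the counts describe and are no evidence of their own. A gene can be in more than 1 list, and 40 of the 61 were in at least 1. In the lists for transcription machinery, chromatin, splicing and processing, mRNA decay and nuclear pore together, 14 of 41 eligible genes were steady (34.1%), against 14.6% of all eligible genes and 47 of 378 (12.4%) outside these lists, with a median ratio of 1.298 against 1.51 over all eligible genes. As first written, before the edits, these lists gave 11 of 32 (34.4%). Kinases and phosphatases had 7 steady genes of 18 (38.9%) and a median ratio of 1.32, and translation factors 3 of 5. As first written these were 5 of 12 and 1 of 2.

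The other lists are given beside the 14.6% of all eligible genes. Metabolic enzymes had 7 of 58 steady (12.1%) and a median ratio of 1.50, but 1 of 28 as first written, so that this share rests on the edits. Sequence-specific transcription factors had 3 of 14 (21.4%), on a list that held 0 eligible genes as first written. Ubiquitin, proteasome and autophagy genes had 4 of 20 and the proton pump and lysosome 2 of 10. Both counts are too small and too near the overall 14.6% to be read as higher. No steady gene was found among 22 eligible genes of the cytoskeleton and motors, 14 of vesicle traffic, 6 chaperones, 5 of mitochondrial energy and 3 each of ribosome assembly and of replication, repair and cell cycle. In lists of 3 to 6 genes the overall share amounts to less than 1 gene, so nothing is read from a count of 0 there. The replication, repair and cell cycle list had 0 of 9 steady as first written, so its small size rests on the edits. The lists with the widest spread were membrane transporters, with 0 of 27 steady and a median ratio of 1.88, and cuticle and chitin genes, with 0 of 5 and 2.76. As first written, the transporter list held 0 eligible genes, so its count and median rest on the edits. The cuticle list then had 0 of 7 steady. Name groups left out by the rule, such as ribosomal proteins and solute carriers, are missing from these counts.

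**Figure D3:**
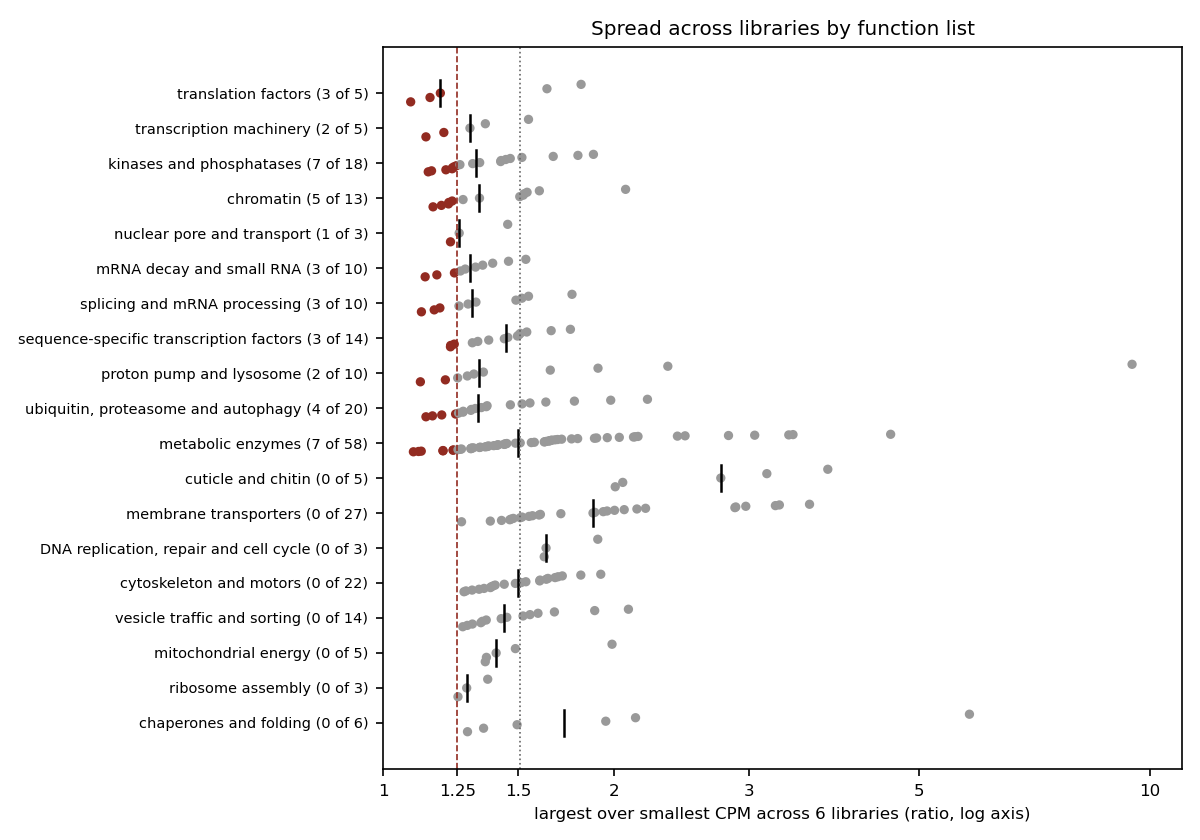
Ratio of largest to smallest CPM across the 6 libraries (x axis, log scale) for the eligible genes of each function list with at least 3 of them, with steady genes in red, other genes in grey and the list median as a black bar. The dashed line marks the 25% limit and the dotted line the median of all 419 eligible genes, 1.51. The medians of the transporter and cuticle lists lie to the right of the dotted line at 1.88 and 2.76.

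For the contrast itself, genes of the same lists that were not steady were looked up in the edgeR test over all 9768 genes. In the pooled nuclear lists, 51 such genes were tested and edgeR called none at an adjusted p under 0.05. An unadjusted p under 0.05 was found in 5 of them (9.80%; Caf1_0, Dbp80, Ehmt2_2, Pen and Su(var)205), against 2050 of all 9768 genes (20.99%), and DESeq2 called none. The lists were edited with values known, so this share is a description only. An unadjusted edgeR p under 0.05 was found in 13 of 27 membrane transporters and 6 of 15 genes of replication, repair and cell cycle. DESeq2 called 9 and 4 genes of these lists. These counts are a description only as well, since both lists were edited with values known. The transporter list held 0 eligible genes as first written. Among the pump genes, Atp6v0a1_2, another gene with the symbol of the steady Atp6v0a1_5, was at 55.0, 70.2 and 62.8 CPM without and 129, 126 and 120 CPM with irradiation. It rose by 1.00 on the log2 scale (SE 0.163, edgeR adjusted p = 0.0264, higher in 3 of 3 irradiated libraries). Fzr1_0, an activator of the anaphase-promoting complex, rose from 37.9 ± 0.577 to 56.6 ± 3.60 CPM (log2 0.59, edgeR adjusted p = 0.0369), and Fanci_0, of the Fanconi DNA repair pathway, fell from 6.55 ± 1.39 to 3.06 ± 0.0169 CPM (log2 -1.07, edgeR adjusted p = 0.0283). Also called were Idgf4_1, an imaginal disc growth factor, which rose, and Picot_4, a transporter, which fell. All of these calls, and that of Gusb_3 among the reference genes, were lost when irradiated replicates 1 and 2 were summed into 1 library or when either was left out, and over all 13 alternatives their highest edgeR adjusted p was between 0.0848 and 0.202. Their direction did not change in any of these.

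Of the genes often used as references in expression studies, 1 in the list, Gusb_1, a beta-glucuronidase, was eligible. Its CPM was 36.99, 29.5 and 34.9 without and 35.8, 38.1 and 37.5 with irradiation, a ratio of 1.29, over the limit. This turned with the scaling, since the ratio was 1.245 with TMM and 1.240 with RLE factors, both within the limit. Gusb_3, which has the same symbol, was at 23.8, 23.4 and 18.05 CPM without and 40.5, 41.8 and 53.2 CPM with irradiation, and was called higher (log2 1.07, edgeR adjusted p = 0.0232). The genes for elongation factor alpha and actin that served the study's own quantitative PCR were not analysed here.

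Some steady genes share their symbol with other genes. In the table, 6 of the 61 had 11 such genes, of which 5 were eligible and none was within the ratio, where the 14.6% of all eligible genes amounts to less than 1 of 5. Beside Atp6v0a1_5 at 1.206, the genes Atp6v0a1_0, Atp6v0a1_2 and Atp6v0a1_4 had ratios of 1.31, 2.35 and 1.91. Cdyl_2 was at 1.52 against 1.19 for Cdyl_5, and Gs1l_0 at 1.87 against 1.19 for Gs1l_2. How reads of such similar genes were divided in the counting is not stated, which makes the levels of the 6 uncertain.

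The position of the steady genes was a measure that the rule had not used. In the gene order of the RefSeq table for assembly idZeuCucr1.2, which held all 61, they had 121 distinct direct neighbours. Nurf-38 and Znf598_0 were next to each other, and no other neighbour was a steady gene. Of the 44 other neighbours at 20 CPM or more in every library, 16 were themselves within the ratio (36.4%), against 35 of 222 neighbours (15.8%) of the eligible genes over the ratio. Neighbours of steady numbered genes were within it in 45 of 333 cases (13.5%) and those of the other numbered genes in 228 of 1692 (13.5%). The 61 steady genes were left out of the neighbours in all these counts. This takes steady neighbours away from the numbered genes beside them, and from the eligible genes over the ratio beside them. The shares are therefore a description, and nothing is read from the differences between them. As counted, the 36.4% beside the steady symbol-named genes was not seen beside the steady numbered genes. All these values come from the same 6 libraries, and neighbouring genes can share reads where they overlap. Whether the counting used strand is not given in the sources used here.

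How the libraries are scaled decided which genes counted as steady. With TMM scaling 64 genes were within the ratio, of which 41 were among the 61 and 23 were not. With RLE scaling (the median-ratio factors of DESeq2) there were 63, with 43 shared. In all, 40 of the 61 stayed within the limit under all 3 scalings, and 21 did not. Those 40 held all 3 translation genes, both mRNA decay genes, 7 of 8 genes of transcription and chromatin (without Nurf-38), and 6 of 10 signalling genes, but 3 of 6 genes of mRNA capping, processing and export and 1 of 4 for membrane and surface. The ratio of Rga narrowed from 1.24 to 1.07 with TMM, that of Tfiia-l from 1.2003 to 1.08, whereas Nurf-38 widened from 1.23 to 1.37 and Gpt2_0 from 1.197 to 1.34. Ef2b and Mfe2_2, with the smallest ratios by plain CPM, widened to 1.192 and 1.262 with TMM. Mfe2_2 was over the limit with RLE factors as well (1.2513). Non-irradiated replicate 1, whose TMM factor was 1.1, was the lowest library by CPM for Gpt2_0 and the highest for Rga and Tfiia-l. The mean factor that the 61 genes themselves gave each library was between 0.986 and 1.02.

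**Figure D4:**
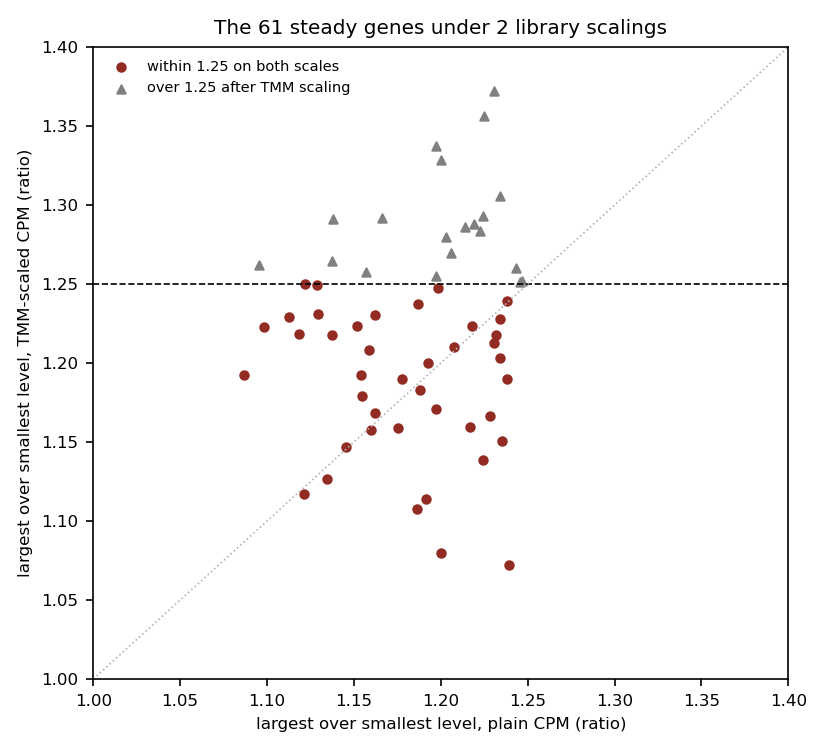
Ratio of largest to smallest level of the 61 steady genes with plain CPM (x axis) and with TMM-scaled CPM (y axis). Circles below the dashed line at the 25% limit are the 41 genes within the limit on both scales, and triangles are the 20 that exceed it after TMM scaling, up to 1.37 for Nurf-38.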

How the data were processed

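RNA-seq of 6 pools of 20 larvae was analysed. The authors aligned reads with HISAT2, and the submitters' processing notes name HTSeq version 0.6.1p2 for counting. The deposited counts per gene are whole numbers without normalization. The deposited FPKM values are those counts divided by the library total and gene length. The lowest total, 13192748 counts, puts 1 count at 0.0758 CPM. Intervals were not computed, and counting error is given as a CV.

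The members and the function lists were chosen with earlier results of these data known. List edits added 127 genes and removed 46. The group test was that of edgeR (version 4.0.16, under R 4.3.3; TMM, filterByExpr, robust quasi-likelihood test, Benjamini-Hochberg adjustment over 9768 genes). Per the study's methods, replicates were separate sets of egg dishes, so p-values were taken to measure the spread between such sets within 1 experiment. The labels do not say whether irradiated replicates 1 and 2, the pair most alike, share larvae or RNA. If they did, the p-values would be too small. DESeq2 (version 1.42.0), other scalings, filters and ratio limits, the replicate number as a block, and each library left out were alternatives. Scripts were tested on simulated counts.

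Named by rule were the 10 steady genes with the smallest ratio, the 10 with the highest CPM, those beside the limit, the 3 highest in each list, list genes called by edgeR and eligible reference genes. The other steady genes were named after their values were seen. The values of 1 steady gene and 1 called list gene are not reported here. Names and gene order came from assembly idZeuCucr1.2, which held 11831 of the 12834 genes. Coordinates and sequences are not given.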

Additional observations from a re-analysis of the deposited data

How the results depend on the processing

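The number of steady genes depended on the limits: 35 at a ratio of at most 1.2, 97 at 1.3, 38 at 50 CPM or more, and 27 with at least 1000 counts in every library, an alternative chosen after seeing the data. It was 76 at 10 CPM or more, 79 with only a count required, and 61 with FPKM for the ratio. Leaving out each library in turn gave 63 to 116, and a library less can only narrow a ratio. The 209 genes higher and 156 lower in irradiated larvae became 20 and 5 with irradiated replicates 1 and 2 summed and 554 and 480 with DESeq2. With each library left out in turn, 18 to 162 genes were higher and 3 to 154 lower. The lowest counts were those without irradiated replicate 1 (18 and 3), and 22 and 5 remained once irradiated replicate 2 was dropped. RLE factors, both filters and the steady genes as scaling reference (chosen after seeing the data, 219 and 153) stayed within 1.5 times the reported counts. With the replicate block, 54 genes were higher and 35 lower. The sources used here name no link between same-numbered libraries beyond the number. Their deviations from the group means had correlations of -0.0123, -0.0955 and -0.155, which cannot show that nothing was shared. All 7 called list genes lost their call with the replicate block, and also when the alike pair was summed or either of its libraries dropped. Of 36 steady genes named by rule, 12 exceeded the ratio with TMM and 10 with RLE scaling. With TMM scaling, ubiquitin, proteasome and autophagy genes had 8 of 20 within the ratio, ribosome assembly 2 of 3 and the cytoskeleton and motors 1 of 22. The proton pump and lysosome fell to 1 of 10. Within a ratio of 1.5, 208 of 419 eligible genes (49.6%) were found. The planned promoter motif share was not run, since no promoter table was used here.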

Other observations

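Equal group means did not always go with a steady level. Among the eligible genes, 14 had group means within 5% of each other but a ratio of largest to smallest CPM of 1.5 or more. Gst1_1, named for a glutathione S-transferase, was at 20.9, 39.2 and 44.97 CPM without and between 33.05 and 36.9 CPM with irradiation, so that its means differed by 1.36% and its ratio was 2.15. Mi-2, an ATPase of the NuRD chromatin remodeler, was at 90.7, 71.5 and 109 CPM without and at 87.1, 86.1 and 89.9 CPM with irradiation. Actn_1, an alpha-actinin of muscle, was lowest in non-irradiated replicate 1 (563 CPM) and irradiated replicate 3 (586 CPM) and between 829 and 919 CPM in the other libraries. Prm_3, paramyosin of the thick filament of muscle, was likewise lowest in these libraries, at 1412 and 1324 CPM against 1757 to 2032 CPM. Other genes did not follow this pattern. Myom_0, also of the 14, was at 40.5 and 53.3 CPM in these libraries and between 33.7 and 57.8 CPM in the others. The muscle marker Tm2_1 was low in irradiated replicate 3 alone (1505 CPM). In non-irradiated replicate 1 it was at 2125 CPM, within the 2093 to 2468 CPM of the other libraries.

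The flattest genes of the table were not among those with symbols. LOC105217621 had a mean of 56.1 CPM and a ratio of 1.04, and LOC105216651 a mean of 349 CPM and a ratio of 1.046, both narrower than the 1.09 of Ef2b. Among numbered genes at 20 CPM or more in every library, 514 of 3316 were within the 25% limit. Of the 51 symbol-named genes of left-out name groups at that level, 4 were within it: Abcg1_1 (1.17), Cox10_0 (1.17), Sec63_1 (1.22) and Slc25a44_0 (1.09). These genes were named after their values were seen.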
